A study of Rattus norvegicus with 6 samples.

Results

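Transthyretin and 7 further genes of thyroid hormone and retinol handling were described in the rat hippocampus after noise exposure. The 8 genes were Ttr, Slco1c1, Dio2, Dio3, Thra, Thrb, Rbp4 and Stra6. They were found by gene symbol among the 29489 transcript clusters of the array, of which 20757 carried a single gene symbol, and each of the 8 had 1 cluster. The genes were selected on the noise and control signals of these same arrays, which were known when the set was put together. Their differences are therefore given as a description and without a test.

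Ttr encodes transthyretin, a secreted protein that binds thyroxine and also carries retinol-binding protein. In the brain its transcript is a hallmark of the choroid plexus epithelium, which releases transthyretin into the cerebrospinal fluid. Thyroxine enters the brain through membrane transporters such as the one encoded by Slco1c1, is converted to the active hormone by the deiodinase of Dio2 and is inactivated by that of Dio3. The active hormone binds the nuclear receptors encoded by Thra and Thrb. Retinol travels in blood on the product of Rbp4, in complex with transthyretin, and the product of Stra6 is a membrane receptor that takes it up.

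The noise group consisted of 3 arrays (noise 2, noise 3 and noise 4) and the control group of 3 arrays (control 1, control 2 and control 6). Both groups were female Sprague-Dawley rats of 3 weeks of age. Noise rats were awake in a sound chamber with white noise of 2 to 20 kHz at 115 dB SPL for 4 h a day on 3 days, and control rats stayed in the same kind of chamber without noise. All rats were anesthetized for a hearing test some hours before the tissue was taken, the dissection was aimed at the dorsal CA3 field, and the RNA on each array came from the pooled tissue of a pair of rats. The values are log2 signals of an Affymetrix expression array, so a difference of 1 is a doubling, and levels of different genes cannot be set against each other because their probes differ. With 3 arrays in each group, an exact two-sided permutation test of a single value cannot give a p below 0.1, and all p-values below measure only the spread between these pools.

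Marker genes of the tissue label were read, which is only a coarse check because probes differ between genes. Of 15 markers of hippocampal pyramidal and granule neurons, 12 were at or above the array median of 5.05, the middle of all clusters. None of the 15 passed the thresholds between the groups, beside 1.46% of all clusters. Here and below the thresholds are those of the study, a p before adjustment no higher than 0.05 together with a difference of 1.5-fold or more. The arrays correlated with each other at r between 0.981 and 0.990 over all clusters, without a test. Some arrays nevertheless stood apart in genes of neighbouring tissues. The mean of 39 choroid plexus genes was 5.39, 5.44 and 5.47 on noise 2, noise 3 and noise 4, against 6.61, 6.18 and 5.64 on control 1, control 2 and control 6. Control 2 also stood apart in genes of the pineal gland and photoreceptors, a list written after the data were seen. Of its 12 genes, 11 were highest on control 2, where 17.2% of all clusters were highest. Tph1, which encodes the enzyme that starts melatonin synthesis in the pineal gland, was at 3.48, 4.44 and 3.90 on the noise arrays, against 4.50, 10.9 and 3.89 on control 1, control 2 and control 6. Ttr and the choroid plexus, thalamic and endothelial lists are therefore also given without control 1, without control 2 and without both, the last of which leaves control 6 as the only control array and is given as values.

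In Ttr all 3 noise arrays lay below all 3 control arrays. Its log2 signal was 6.36 on noise 2, 5.09 on noise 3 and 7.47 on noise 4, against 11.7 on control 1, 10.9 on control 2 and 9.08 on control 6. The means were 6.31 ± 1.19 in the noise group and 10.6 ± 1.35 in the control group (SD, n = 3 each). Noise minus control was -4.26 (SE 0.77, limma), a signal 19.2-fold lower in the noise group. No other of the 29489 clusters had a more negative difference.

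The size of the Ttr difference depended on which arrays were set against each other. The closest arrays of the 2 groups were noise 4 and control 6, between which the control signal was 3.05-fold the noise signal. The farthest were noise 3 and control 1, with a 99.7-fold difference. Within the groups, Ttr spanned 2.38 log2 units over the noise arrays and 2.65 over the control arrays. Its SD ranked 6 among all clusters within the noise group and 20 within the control group, whereas the median cluster had an SD of 0.15 in the noise group and 0.13 in the control group. Leaving out single arrays gave differences between -5.00 and -3.65. Without control 2 the difference was -4.10, without control 1 it was -3.68, and against control 6 alone it was -2.78.

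**Figure D1:**
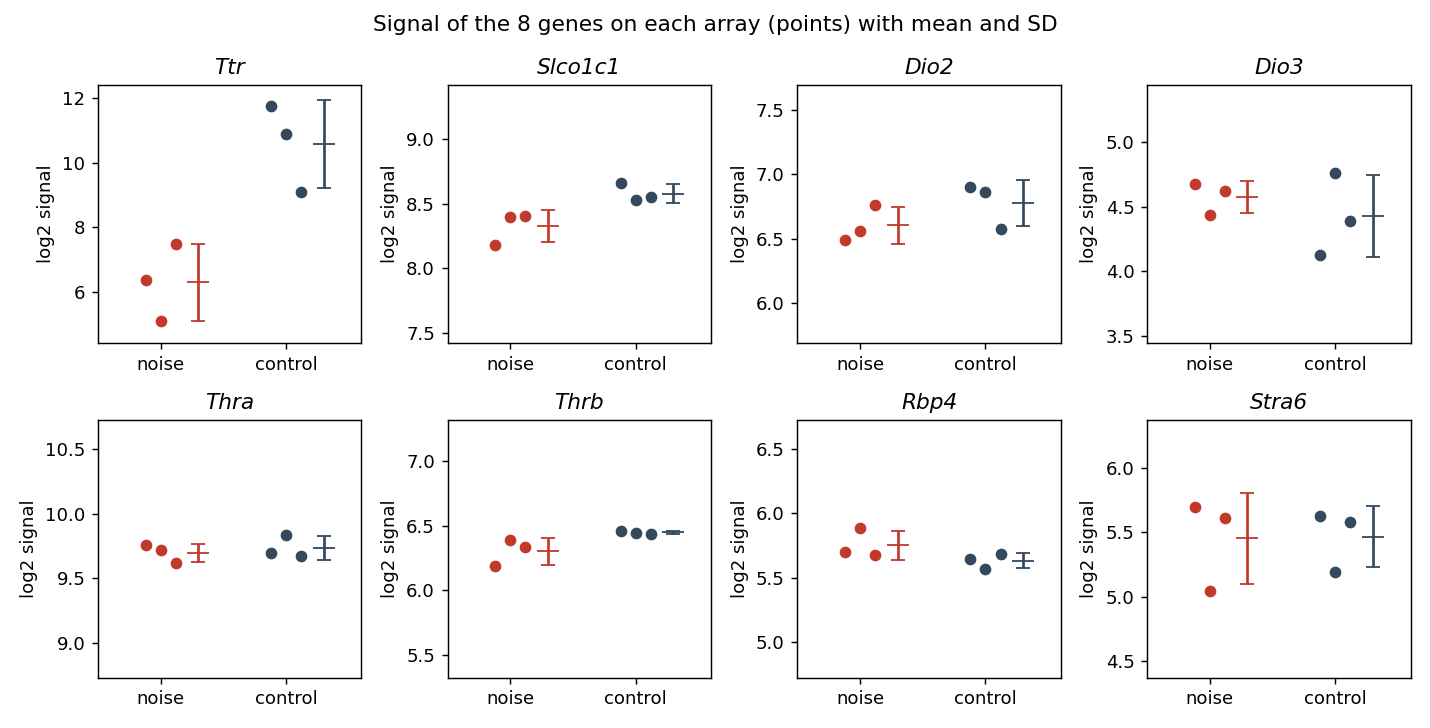
Log2 signal (vertical axis) of each of the 8 genes on the 3 noise arrays (left, red) and the 3 control arrays (right, blue). Points are arrays, in the order noise 2, 3, 4 and control 1, 2, 6, and the cross-bars give the mean and SD; every axis but that of Ttr spans 2 log2 units. Only the groups of Ttr, Slco1c1 and Thrb do not overlap, and the gap is 1.61 log2 units for Ttr, 0.13 for Slco1c1 and 0.05 for Thrb.

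Ttr was the only one of the 8 genes that met both thresholds, a count that carries no evidence because the genes were selected on these signals. In the limma fit over all clusters 0.882% were past both thresholds in the lower direction, 0.58% in the higher direction and 1.46% in either. The p threshold alone was met by 10.1% of clusters, and an adjusted p of 0.05 by 0.0102% (3 clusters). All noise arrays were below all control arrays for 3 of the 8 genes and for 8.06% of all clusters, and above them for none of the 8 genes and for 8.45% of all clusters. The median difference of the 8 genes was -0.09, and -0.03 without Ttr, beside a median of 0.01 over all clusters. After Ttr, the largest difference in either direction was 0.25 log2 units. The 5th and 95th percentiles of all clusters were -0.35 and 0.34.

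Choroid plexus genes differed in the same direction as Ttr. Of 39 measured genes of this epithelium, not counting Ttr, 14 were lower in the noise group past both thresholds and none was higher, with a median difference of -0.43. The list was chosen with earlier results of these data known. It holds genes that the study itself reported as lower, such as Kl, Slc4a5 and Igf2, so the count is a description. The lowest adjusted p in the list was 0.33 (limma, Benjamini-Hochberg). Without control 1 the count was 11 and the median -0.26, and without control 2 they were 15 and -0.58. Without both, against control 6 alone, the median was -0.12. The 4 largest differences were those of Otx2, a homeobox transcription factor needed for choroid plexus development (-2.56, SE 0.74), Kl, which encodes the hormone co-receptor klotho (-2.48, SE 0.63), Kcnj13, which encodes a potassium channel of the apical membrane (-2.36, SE 0.55), and Slc4a5, which encodes a bicarbonate transporter (-2.26, SE 0.57). The first place of Otx2 rested on control 2, where it was highest. Without control 2 its difference was -1.96, smaller in size than that of Kl (-2.40), Kcnj13 (-2.27) or Slc4a5 (-2.02). Without control 1 these differences were -2.24 for Otx2, -1.78 for Kl, -1.77 for Kcnj13 and -1.76 for Slc4a5, and against control 6 alone they were -0.72, -0.93, -1.01 and -0.79 in the same order of genes. Kcnj13 was at 4.09, 4.12 and 4.39 on noise 2, noise 3 and noise 4, against 7.73, 6.72 and 5.22 on control 1, control 2 and control 6. Kl was at 4.78, 4.44 and 4.72 on the same noise arrays, against 8.52, 7.27 and 5.58 on the control arrays. Both stood in the order of Ttr over the control arrays, highest on control 1 and lowest on control 6. In bulk tissue, fewer choroid plexus cells and less of these transcripts per cell cannot be told apart.

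The order of the arrays was then counted within each group. Of the 39 choroid plexus genes, 27 (69.2%) followed the order of Ttr over the control arrays, against 15.7% of all clusters. Over the noise arrays 6 of them (15.4%) followed the order of Ttr, against 17.7% of all clusters. The choroid plexus genes were also flatter than Ttr in the noise group. Their range over the noise arrays had a median of 0.38 and a maximum of 1.19, reached by Otx2, while Ttr spanned 2.38. These counts are descriptions, since the genes share the arrays and the dissections. Some of the genes were below the array median of 5.05 on the noise arrays, such as Kl (4.44 to 4.78) and Kcnj13 (4.09 to 4.39). Others were far above it, such as Enpp2 (10.1 to 10.3). How far low signal limited the range and the order of the choroid plexus genes in the noise group was not tested. With the mean of the choroid plexus list as a covariate in the fit, the Ttr difference was -2.27 (SE 0.88), a value that rests on few arrays because the list mean itself does not overlap between the groups.

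**Figure D2:**
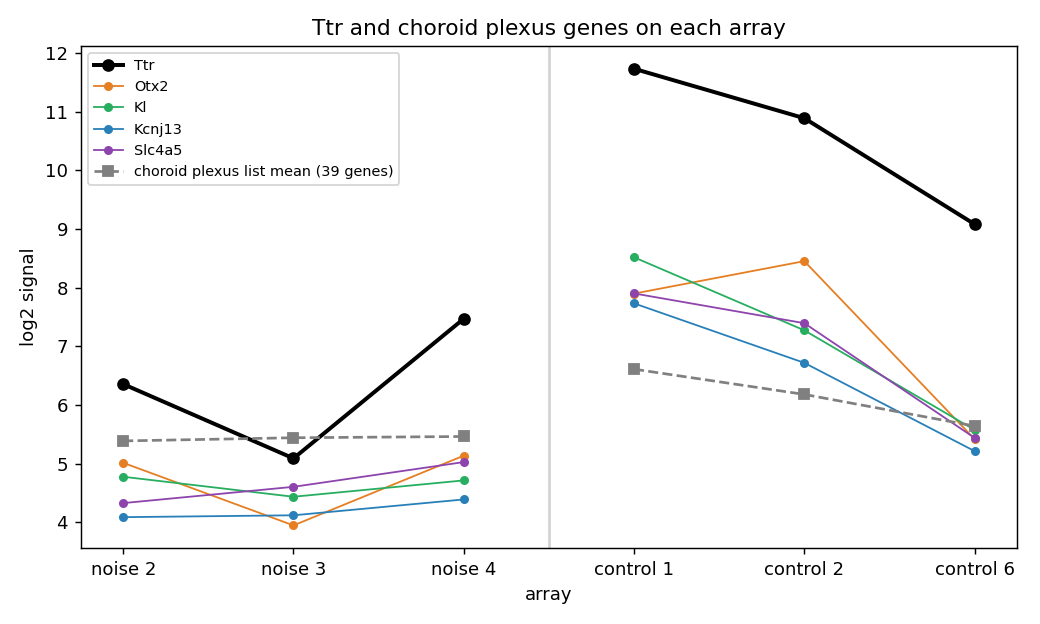
Log2 signal (vertical axis) of Ttr, of 4 choroid plexus genes and of the mean of the 39-gene choroid plexus list on each of the 6 arrays (horizontal axis, noise left of control). Lines join arrays of a group only for legibility; over the control arrays Ttr, Kl, Kcnj13, Slc4a5 and the list mean decline in the same order, while over the noise arrays the list mean stays between 5.39 and 5.47 and Ttr spans 2.38.

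Other tissues near the hippocampus were read in the same way. Of 16 genes of the thalamus and habenula, 7 were lower in the noise group past both thresholds, among them Chrna3, a nicotinic acetylcholine receptor subunit (-1.17, SE 0.32). This list too was chosen with earlier results known. It holds Chrna3, Slitrk6 and Slc5a7, which the study reported as lower, so its count is a description. The mean of the 16 genes lay between 5.09 and 5.38 on the noise arrays and between 5.49 and 5.99 on the control arrays. The count was 6 without control 1 and 6 without control 2, where Chrna3 differed by -0.98 and -1.07. Against control 6 alone Chrna3 differed by -0.59 and the median of the list was -0.17, against -0.47 with all arrays. Of 14 genes of meninges and fibroblasts 1 was lower, and of 12 genes of ependyma and tanycytes none passed the thresholds. The part of any of these tissues in the Ttr values was not tested.

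The 250 bases that precede the RefSeq start of Ttr were searched for motifs of thyroid hormone and retinoic acid receptors and of Otx2. A role of any of these factors in the Ttr values was not tested. The window lies on the plus strand at chr18:12218508-12218757 of the RefSeq build GRCr8. Capitals mark GGTCA and its reverse complement TGACC, the core of the half-site that thyroid hormone and retinoic acid receptors bind.
Ttr: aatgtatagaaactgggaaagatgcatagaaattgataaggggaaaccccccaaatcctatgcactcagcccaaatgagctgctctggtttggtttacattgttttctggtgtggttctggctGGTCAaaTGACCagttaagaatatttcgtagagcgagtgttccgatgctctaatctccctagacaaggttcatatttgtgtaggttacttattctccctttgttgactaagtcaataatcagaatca
The window holds GGTCA on each strand, 2 bases apart, and 35.4% of all 33469 RefSeq windows hold at least 1 copy on either strand. The share of windows with such a pair was not counted. The full half-site AGGTCA, which contains GGTCA, occurs in 14.1% of all windows and in none of the 8 windows of the 7 genes that have one here. The Otx2 motif TAATCC occurs in 6.34% of all windows and, among the 7 genes with a window, in that of Thrb only and so not in that of Ttr. A forkhead motif, TGTTTAC, was also searched. It occurs in 3.21% of all windows and, among the same genes, in that of Dio2 only. The motifs were chosen after the sequence was seen, and a match or its absence is a property of these letters only.

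Among the transporters of thyroid hormone, Slco1c1 was lower on every noise array by a small margin. Slco1c1 encodes a thyroxine carrier of brain capillaries, the choroid plexus and astrocytes. Its signal was 8.18, 8.39 and 8.40 on noise 2, noise 3 and noise 4, against 8.66, 8.53 and 8.55 on control 1, control 2 and control 6. The highest noise array was 0.13 below the lowest control array. Noise minus control was -0.25 (SE 0.10), a fold of 1.19, which is under the fold threshold. With the choroid plexus mean as a covariate it was -0.16 (SE 0.18).

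Of 20 further measured genes of thyroid hormone transport, activation and binding, 1 passed both thresholds, in the lower direction, and the median difference of the list was -0.02. This gene was Wsb1, whose product is the substrate-recognition part of a ubiquitin ligase that marks the Dio2 deiodinase for degradation. Wsb1 was at 7.30, 7.20 and 7.38 on noise 2, noise 3 and noise 4, against 7.998, 7.82 and 7.92 on the control arrays. The groups did not overlap and noise minus control was -0.62 (SE 0.10, limma, adjusted p = 0.27). Its fold of 1.54 is close to the threshold, and it went under it without noise 3 (-0.57), without control 1 (-0.58) and with the choroid plexus mean as a covariate (-0.57). Usp33, which encodes an enzyme that removes the same ubiquitin mark, had a difference of 0.01 (SE 0.10).

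Slco1a2, an organic anion carrier of the blood-brain barrier, did not reach the fold threshold. It was at 6.54, 6.59 and 6.50 on the noise arrays, against 7.01, 7.01 and 6.95 on the control arrays. Its groups did not overlap, and its difference of -0.45 (SE 0.09, limma, adjusted p = 0.30) exceeded the spread within either group.

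Genes of brain endothelium, where these transporters are also found, differed in both directions. Their list mean was 6.26, 6.28 and 6.37 on noise 2, noise 3 and noise 4, against 6.58, 6.44 and 6.47 on control 1, control 2 and control 6, so the groups did not overlap. Of 16 measured genes, 6 were lower on every noise array and 1 was higher, beside 8.06% and 8.45% of all clusters. Only Abcg2, an efflux transporter of the capillary wall, passed both thresholds (-0.75, SE 0.23). Itm2a, another gene of the list, differed by -0.56 (SE 0.12) and was also lower on every noise array. Mfsd2a, a lipid transporter of brain capillaries, had the largest difference of the list in the higher direction. It was at 7.20, 6.74 and 6.96 on the noise arrays, against 6.66, 6.31 and 6.38 on the control arrays, a difference of 0.52 (SE 0.15), and it passed both thresholds without control 1 (0.62). The median difference of the list was -0.22, and it was -0.13 without control 1, -0.24 without control 2 and -0.16 against control 6 alone. Abcg2 differed by -0.64 without control 1, -1.03 without control 2 and -1.07 against control 6 alone. The part of endothelial RNA in the values of Slco1c1 and Slco1a2 was not tested.

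**Figure D3:**
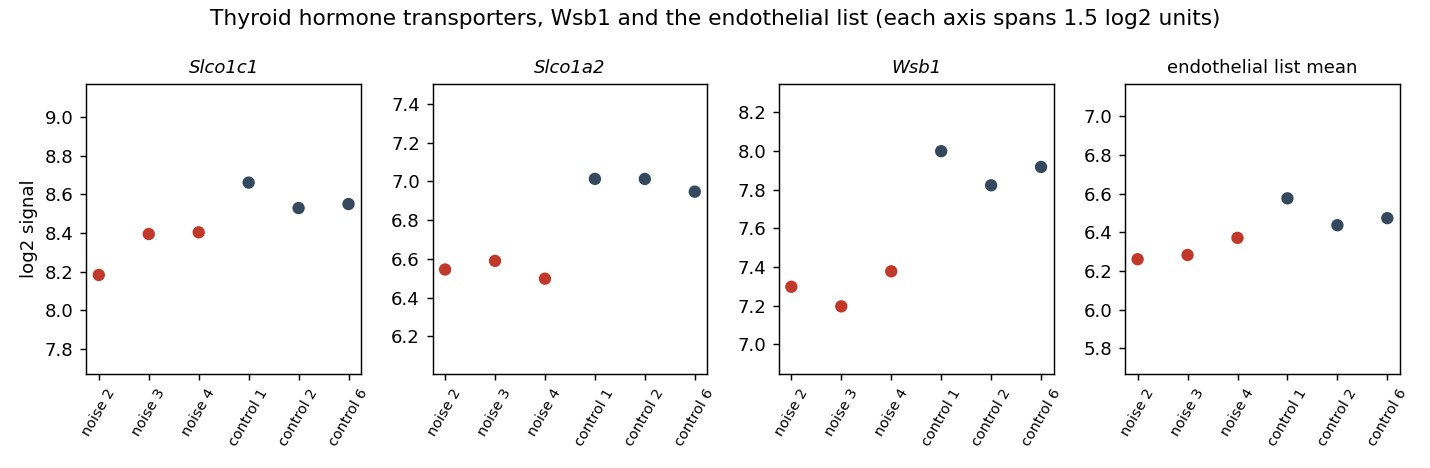
Log2 signal (vertical axes, each spanning 1.5 log2 units) of Slco1c1, Slco1a2 and Wsb1 and the mean of 16 endothelial genes on the noise arrays (red, left) and the control arrays (blue, right). In each panel all noise arrays lie below all control arrays, and for Slco1a2 the noise arrays sit between 6.50 and 6.59 and the control arrays between 6.95 and 7.01.

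The deiodinases did not separate the groups. Dio2, the activating enzyme found mainly in astrocytes and tanycytes, was at 6.49, 6.56 and 6.76 on noise 2, noise 3 and noise 4, against 6.90, 6.87 and 6.57 on control 1, control 2 and control 6. Noise 4 was above control 6, so the groups overlapped, and the difference was -0.17 (SE 0.13). Within the groups Dio2 mostly moved with Ttr. Both were highest on noise 4 among the noise arrays, and both declined over control 1, control 2 and control 6. Between the other noise arrays they went opposite ways, with Dio2 lowest on noise 2 and Ttr lowest on noise 3. Their deviations from the group means correlated at r = 0.85 over 6 arrays. This r is a description, since removing the group means leaves fewer free values than arrays. With the choroid plexus mean as a covariate the Dio2 difference was 0.08 (SE 0.18), and against control 6 alone it was 0.03. Astrocyte genes were level, with a median difference of 0.01 over 12 genes.

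Dio3, the inactivating enzyme, was the only one of the 8 genes below the array median of 5.05. It was at 4.67, 4.43 and 4.62 on the noise arrays, against 4.13, 4.76 and 4.39 on control 1, control 2 and control 6. The control arrays spanned 0.63 and held both the lowest and the highest value. The difference was 0.15 (SE 0.17).

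The receptor genes had small differences. Thra, which encodes the major thyroid hormone receptor of the brain, was at 9.75, 9.72 and 9.62 on noise 2, noise 3 and noise 4, against 9.69, 9.84 and 9.67 on control 1, control 2 and control 6, with a difference of -0.03 (SE 0.10). Thrb, the second receptor, was at 6.19, 6.39 and 6.34 on the noise arrays, against 6.46, 6.45 and 6.44 on the control arrays. Every noise array was lower, but the gap was 0.05 and the difference -0.14 (SE 0.09). The control arrays were almost identical in Thrb, with an SD of 0.01.

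Of 19 genes listed as partners and cofactors of the receptors, none passed both thresholds. Nr1d1, a clock repressor gene, had the largest difference. Its tie to the receptors here is its locus, which lies opposite Thra and overlaps its 3′ end. Nr1d1 was at 8.79, 8.73 and 8.74 on the noise arrays, against 8.15, 8.14 and 8.31 on the control arrays. The difference of 0.56 (SE 0.09, limma, adjusted p = 0.28) equals a fold of 1.47. Without control 6 it was 0.61 and past both thresholds. Rxrg, a retinoid X receptor that pairs with thyroid hormone receptors, differed by -0.52 (SE 0.23) with overlapping groups, and Kat2b, an acetyltransferase coactivator, by -0.14 (SE 0.11). Rxrg passed both thresholds without noise 3 (-0.69) or without control 6 (-0.73).

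None of 18 brain genes known to respond to thyroid hormone passed both thresholds, and their median difference was -0.01. Klf9, a transcription factor gene induced by thyroid hormone and also by glucocorticoids, was at 8.80, 8.82 and 8.65 on the noise arrays, against 8.38, 8.39 and 8.46 on the control arrays. Its groups did not overlap and its difference was 0.35 (SE 0.09, limma, adjusted p = 0.36), a fold of 1.28. Thrsp, a lipogenic gene induced by thyroid hormone, differed by 0.24 (SE 0.12) and Mag, a myelin gene, by 0.23 (SE 0.11), both with overlapping groups. Mbp, Nrgn and Hr, targets long known in rodent brain, differed by -0.03, -0.10 and -0.0002.

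**Figure D4:**
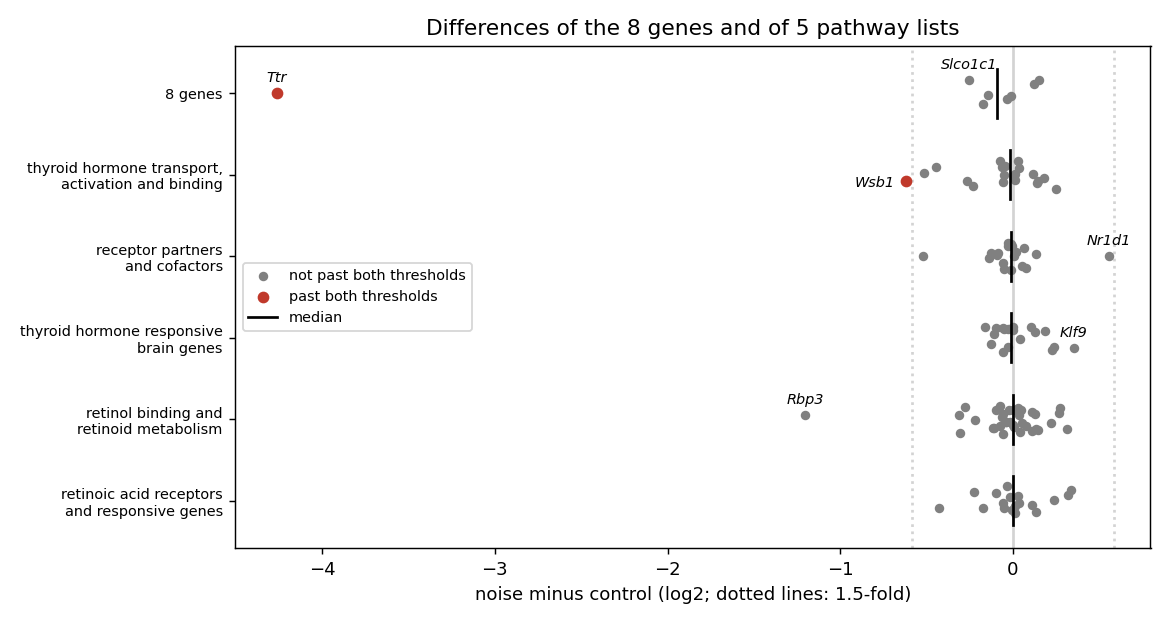
Noise minus control on the log2 scale (horizontal axis) for the 8 genes and for the measured genes of 5 pathway lists (rows); each point is a gene, black bars are row medians and dotted lines mark a 1.5-fold difference. Ttr at -4.26 and Wsb1 at -0.62 are the points past both thresholds (red), and the list medians lie between -0.02 and 0.00.

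Neither retinol gene separated the groups. Rbp4, the partner of transthyretin in blood, was at 5.70, 5.88 and 5.68 on noise 2, noise 3 and noise 4, against 5.65, 5.57 and 5.68 on control 1, control 2 and control 6. The groups overlapped at noise 4 and control 6, and the difference was 0.12 (SE 0.10). Stra6 was at 5.70, 5.05 and 5.61 on the noise arrays, against 5.62, 5.19 and 5.58 on the control arrays. Noise 3 and control 2 were low and the other 4 arrays lay together, so the difference of -0.01 (SE 0.20) was far below the spread.

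None of 35 genes of retinoid binding, storage and metabolism passed both thresholds, and their median difference was 0.00. Rbp3, which encodes a retinoid carrier of photoreceptors and the pineal gland, had the largest difference, -1.20 (SE 0.83, limma, adjusted p = 0.65). This value came from 1 array. Rbp3 was at 3.66, 4.21 and 3.46 on the noise arrays, against 4.03, 7.19 and 3.71 on control 1, control 2 and control 6. Without control 2 the difference was -0.10. Control 2 was the array on which Tph1 and other pineal genes were high, and the part of pineal tissue in Rbp3 was not tested. Adh4, an alcohol dehydrogenase active on retinol, differed by 0.31 (SE 0.13) and Rdh5, a retinol dehydrogenase, by -0.31 (SE 0.14), both with overlapping groups.

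None of 18 retinoic acid receptors and responsive genes passed both thresholds either. Their median difference was 0.00. Meis1, a homeobox gene induced by retinoic acid, differed by -0.43 (SE 0.21) and passed both thresholds without noise 4 (-0.65). Rarg, a retinoic acid receptor, was higher on every noise array by a difference of 0.34 (SE 0.11), and Cd38, a retinoic acid-induced enzyme of the cell surface, differed by 0.32 (SE 0.18) with overlapping groups.

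Likeness to Ttr was measured by Pearson's r over the 6 arrays, as a description in which the points share the groups and the dissections. Among the other 7 genes, r was 0.81 for Slco1c1 and for Dio2, 0.65 for Thrb, 0.20 for Stra6, 0.19 for Thra, -0.30 for Dio3 and -0.81 for Rbp4. Once group means were removed, r was 0.24 for Slco1c1 and -0.12 for Thrb, and 0.85 for Dio2 and -0.71 for Rbp4. These r of deviations rest on fewer free values than arrays, and the share of all clusters with such an r was not counted. Rbp4 spanned only 0.20 log2 units over the noise arrays and 0.11 over the control arrays.

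The genes most like Ttr over the arrays were Plekha8, which encodes a lipid transfer protein (r = 0.995), Sptlc1, a subunit of serine palmitoyltransferase (r = 0.993), Msi2, an RNA-binding protein gene (r = 0.993), Ubr2, a ubiquitin ligase gene (r = 0.992), and Zfp646, a zinc finger gene (r = 0.991). All 5 had the rank order of Ttr over the 6 arrays. Their noise minus control differences were only between -0.37 and -0.20, against -4.26 for Ttr. Of 11956 candidate genes at or above the array median, 326 had r over 0.9 with Ttr. Of the 39 measured choroid plexus genes, 9 were among these 326, and those below the array median were not candidates.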

How the data were processed

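RNA of 6 pools (3 noise, 3 control) was hybridized to Affymetrix Rat Gene 2.0 ST arrays. The authors processed the scans with robust multi-array averaging in GeneSpring, and the deposited values are log2 signals per transcript cluster, already normalized; they were used without change. Array number limits the precision, and probe-level background was not used here. Gene symbols were taken from the workbook's column beside the values, since a further annotation block did not match the rows. The 8 genes and all lists were chosen with earlier results of these data known. Noise minus control was fitted over all 29489 clusters with limma 3.58.1 in R 4.3.3 (lmFit, eBayes), with Benjamini-Hochberg adjustment, and clusters past an unadjusted p of 0.05 and a fold of 1.5, the study's thresholds, were counted; the fit was tested on simulated data. Named genes were the 8 genes, each pathway-list gene past both thresholds or else filling the 3 largest differences per list, 4 choroid plexus genes and up to 2 of other cell types, and the 5 genes most like Ttr; Usp33, Mbp, Nrgn, Hr, Mfsd2a and Tph1 were named after their values were seen. The values of 1 gene that this rule names are not reported here. Of 298 list entries besides the 8 genes, 16 had no matching symbol. Alternatives were other normalizations, variance models, array weights, plain tests, a filter on dim clusters, a choroid plexus covariate and leaving out arrays. Promoter windows came from RefSeq (GRCr8). The deposited results of the authors' own comparison were not used.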

Additional observations from a re-analysis of the deposited data

How the results depend on the processing

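The Ttr difference kept its sign under every alternative tried, and the number of the 8 genes that met both thresholds was 1 with all arrays and 1 to 1 without single arrays; Ttr was selected on these values, so this is no test of it. Its difference, -4.26, was -2.27 with the choroid plexus mean as a covariate and -2.78 without control 1 and control 2 together, an alternative chosen after seeing the data. That fit leaves 1 control array, which is assumed to vary like the noise arrays and the limma prior, so its values and counts are not a comparison of replicated groups. Without single arrays it ranged from -5.00 to -3.65. Over all clusters, 171 were higher and 260 lower in the noise group. The higher count was 100 by the methods' t-test, 77 by Welch's version, 56 among brighter clusters only, 379 with the covariate, 322 without noise 4, 307 against the 1 remaining control array, and from 180 to 322 without single arrays. The lower count was 151, 113, 89, 431 and 405 under the first 5 of these and from 247 to 405 without single arrays. Of the other genes, Slco1c1, Dio2, Thrb and Rbp4 kept their sign without single arrays, while Dio3 (-0.0003 to 0.32), Thra (-0.07 to 0.02) and Stra6 (-0.15 to 0.19) did not. Only 3 clusters (0.0102%) had an adjusted p of 0.05 or less. Each of the 8 genes has 1 cluster, so averaging clusters was not run, and array weights do not enter a correlation. No paired analysis was possible because the groups share only the replicate number 2.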

Other observations

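Control 2 carried high signals of genes of the pineal gland and photoreceptors, a list written after the data were seen. Pde6c, a phosphodiesterase subunit of photoreceptors, was at 3.43, 3.59 and 3.27 on the noise arrays, against 3.83, 7.44 and 3.26 on control 1, control 2 and control 6. Crx, a homeobox gene of pineal and retinal cells, was at 4.76, 4.13 and 4.53 on the noise arrays, against 4.36, 7.18 and 4.25 on the control arrays. Of the 12 genes, 5 exceeded every other array by over 1 log2 unit on control 2, as did 45 of all 29489 clusters. Aanat, the night enzyme of melatonin synthesis, was at 4.43, 4.51 and 4.52 on the noise arrays, against 4.60, 4.47 and 4.53 on the control arrays, and did not stand out on control 2. Otx2, which the pineal gland also expresses, was highest on control 2, 0.55 above the next array, whereas Ttr was highest on control 1.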
